A study of Mus musculus with 6 samples.

Results

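The 38 genes described here encode enzymes, carriers and regulators of fatty acid and triglyceride synthesis. They were chosen by name for their place in these pathways from the 55487 genes of the count table. This rule uses no measured value, but the list was drawn up with earlier results of these data known. All 38 were among the 17165 genes that passed the filter on low counts. They fall into 7 roles: the supply of acetyl-CoA and NADPH, chain synthesis and its control, elongation and desaturation, uptake and transport, activation to acyl-CoA, triglyceride assembly, and regulators with a lipid droplet protein. RNA was sequenced from mammary epithelial cells (MECs) of female BALB/c mice at 10 weeks of age, 3 of them wild-type and 3 IL-21isoTg, with 1 library per mouse. By the paper's account, females used for mammary work were virgin, with estrous stage randomized. IL-21isoTg mice carry a transgene for a membrane-bound isoform of the cytokine IL-21 whose expression is specific to T cells. MECs were the cells left after magnetic removal of cells that carry CD45, CD31 or CD140a, which mark leukocytes, endothelium and fibroblasts. The comparison of the genotypes addressed which genes differ in MECs before tumours appear.

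Mammary epithelium makes the triglycerides of milk during late pregnancy and lactation, when the enzymes of fatty acid synthesis are strongly expressed. Carbon from glucose reaches the cytosol as citrate, is converted to acetyl-CoA and malonyl-CoA, and is built into chains by fatty acid synthase, while other fatty acids are taken up from blood lipoproteins. Both sources are activated to acyl-CoA, desaturated or elongated, and joined to glycerol, and the resulting triglyceride is packed into droplets that leave the cell as milk fat globules. The same enzymes work in adipocytes, which surround the epithelium of the gland.

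The libraries held 15902886 to 25719244 counts, and levels are given as CPM, in which each mouse's counts are scaled to the same library size after TMM correction. A count of 3, taken as the floor, corresponds to 0.112 to 0.280 CPM. IL-21isoTg replicate 3 stood apart: salivary gland genes took 41.3% of its counts, against 4.97% to 23.1% in the other 5 mice, and its scaling factor was 0.675. Beside luminal markers, which summed to between 5577 and 9516 CPM and overlapped between the genotypes, fibroblast markers summed to 1985 to 3580 CPM in wild-type mice and 4463 to 5131 CPM in IL-21isoTg mice, and leukocyte markers to 18.7 to 34.2 CPM in all 6 mice. Basal epithelium markers summed to 1328.9 to 1766.5 CPM in wild-type mice and 1455.5 to 2641.8 CPM in IL-21isoTg mice, with overlap and a ratio of means of 1.44. In such bulk samples, fewer cells of a type and less RNA per cell cannot be told apart.

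The largest differences were those of Fabp3, Olah, Thrsp, Cd36 and Scd1, each toward a higher level in IL-21isoTg MECs. These are genes of fatty acid uptake, chain synthesis and desaturation. Scd1 was the 1 gene of 7 (14.3%) in elongation and desaturation to pass an unadjusted p of 0.05. In triglyceride assembly 1 gene of 8 (12.5%) passed, Lpin1, so such counts did not set these roles apart. In lists this short, 1 gene alone puts each share above the 3.19% of all genes tested that were higher. None of the 38 genes passed an adjusted p of 0.05 in the quasi-likelihood test of edgeR, adjusted by Benjamini-Hochberg over all genes, nor did any other gene (0%), and the lowest adjusted p among the 38 was 0.400, for Thrsp. At an unadjusted p under 0.05, 13 of the 38 genes (34.2%) were higher in IL-21isoTg mice and 0 were lower, against 3.19% higher and 2.63% lower among all genes tested. The genotypes did not overlap, with IL-21isoTg higher, for 12 of the 38 genes and, with IL-21isoTg lower, for 0, against 5.54% and 6.54% of all genes. The log2 fold change was positive for 31 genes and negative for 7, with a median of 0.34, beside a median of -0.02 over all genes tested. The calls depended on the test: DESeq2's Wald test and edgeR's likelihood ratio test each called the same 8 genes higher at an adjusted p under 0.05 (Acsl1, Cd36, Cidea, Fabp3, Lpl, Olah, Scd1 and Thrsp), against 0.437% and 0.303% of all genes called higher by these tests. Those 8 are the genes whose level differed by more than 2-fold in the quasi-likelihood fit among the 13 above. The 25 genes with an unadjusted p of 0.05 or above had log2 fold changes of -0.62 to 0.77, of which 18 were positive and 7 negative.

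**Figure D1:**
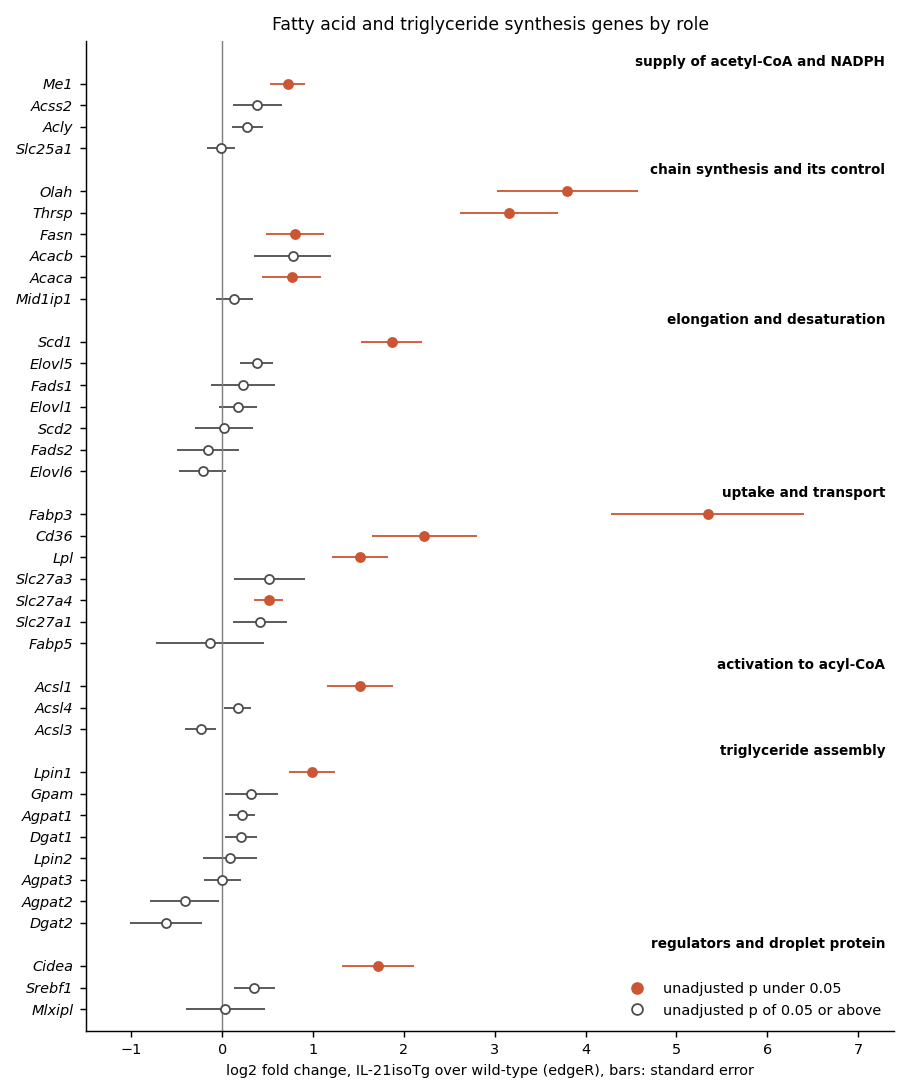
The log2 fold change of each of the 38 genes (IL-21isoTg over wild-type, x axis) from edgeR's quasi-likelihood fit with its standard error, grouped by role. The 13 filled points have an unadjusted p under 0.05 and all lie to the right of 0, from 0.51 for Slc27a4 to 5.34 for Fabp3.

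The sign of small differences depended on the scaling of the libraries. When total counts were used without normalization factors, an alternative added after the data were seen, the median of all genes shifted by -0.25, 21 of the 38 genes were positive and 17 negative, and 9 were higher at an unadjusted p under 0.05 (0.635% of all genes). Relative to the median of all genes, the median of the 38 genes was then 0.33, beside 0.36 with TMM. As a share of all counts, the 38 genes together took 0.188%, 0.256% and 0.235% in wild-type replicates 1, 2 and 3. Their share was 0.373%, 0.395% and 0.168% in IL-21isoTg replicates 1, 2 and 3, so that IL-21isoTg replicate 3, with its salivary gland counts in the total, lay below every wild-type mouse on that scale. Without that mouse, 17 of the 38 genes were higher at an unadjusted p under 0.05 (3.51% of all genes).

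Uptake and transport held Fabp3, the gene with the largest log2 fold change, and had 4 of 7 genes (57.1%) higher at an unadjusted p under 0.05 and a median log2 fold change of 0.52. Fabp3 (chr4:130308595-130315463 in GRCm38, + strand), a cytosolic fatty acid binding protein abundant in lactating mammary gland, was at 0.496, 0.336 and 6.61 CPM in wild-type replicates 1, 2 and 3 and at 173, 73.9 and 57.6 CPM in IL-21isoTg replicates 1, 2 and 3. Every IL-21isoTg mouse was above every wild-type mouse, and wild-type replicate 3 was well above the other wild-type mice. The log2 fold change was 5.34 ± 1.07 (SE), with an adjusted p of 0.522 in edgeR's quasi-likelihood test. Leaving out each mouse in turn gave log2 fold changes of 4.72 to 7.90, with adjusted p of 0.0433 to 0.993 in the same test. The largest log2 fold change and the lowest adjusted p came without wild-type replicate 3. Counts on Fabp3-ps1, its processed copy, were 1 to 18 per mouse, and the gene shares 81 bases of exon with Zcchc17 on the opposite strand, where the reads of both partners can be told apart only if strand was used in the counting, which the sources used here do not state.

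Cd36 (chr5:17781690-17888801, - strand), a membrane receptor that takes up long-chain fatty acids and is also carried by endothelium and adipocytes, was at 14.5, 48.9 and 18.3 CPM in wild-type mice and 197, 131 and 53.7 CPM in IL-21isoTg mice. The genotypes did not overlap, though IL-21isoTg replicate 3 was close to wild-type replicate 2. Its log2 fold change was 2.23 ± 0.58 (SE), with an adjusted p of 0.775 in edgeR's test. It was 1.76 to 2.96 when each mouse was left out in turn, and largest without wild-type replicate 2, the highest wild-type mouse. Lpl, the lipase that frees fatty acids from lipoprotein triglyceride, was at 29.7, 54.1 and 57.1 CPM in wild-type mice and 181, 118 and 105 CPM in IL-21isoTg mice, a log2 fold change of 1.52 ± 0.31 (SE) without overlap. Slc27a4, a fatty acid transport protein, differed less but with little spread: it was at 25.3, 32.6 and 27.8 CPM in wild-type mice and 39.2, 40.9 and 42.2 CPM in IL-21isoTg mice, a log2 fold change of 0.51 ± 0.16 (SE). The 3 other genes of the group overlapped between the genotypes. Slc27a1, a related transport protein, was at 59.6, 115 and 86.9 CPM in wild-type mice and 160, 95.9 and 91.9 CPM in IL-21isoTg mice, and Slc27a3 and Fabp5 had log2 fold changes of 0.52 ± 0.39 and -0.14 ± 0.59 (SE).

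Of the 6 genes of chain synthesis and its control, 4 were higher at an unadjusted p under 0.05 and all 6 had a positive log2 fold change, with a median of 0.79. Olah (chr2:3341982-3397210, - strand), the thioesterase that releases growing chains early and so gives milk its medium-chain fatty acids, had 9, 1 and 26 counts in wild-type replicates 1, 2 and 3 and 220, 226 and 57 counts in the IL-21isoTg mice. These correspond to 0.406, 0.048 and 1.17 CPM in wild-type mice and 9.15, 8.41 and 5.32 CPM in IL-21isoTg mice. The wild-type level was thus below the floor in replicate 2, and no IL-21isoTg mouse overlapped the wild-type range. The log2 fold change was 3.80 ± 0.78 (SE), with an adjusted p of 0.528 in edgeR's test. It was 5.02 without wild-type replicate 3 and 3.27 to 5.02 over the 6 fits that each left out a mouse.

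Thrsp (chr7:97412938-97417730, - strand), known as Spot 14, is a small regulator of lipogenesis in mammary gland, liver and fat. It was at 3.70, 2.55 and 7.20 CPM in wild-type mice and 66.8, 32.9 and 20.1 CPM in IL-21isoTg mice, a log2 fold change of 3.16 ± 0.54 (SE), and of 2.57 without IL-21isoTg replicate 1. Its paralog Mid1ip1 overlapped between the genotypes, with a log2 fold change of 0.13 ± 0.20 (SE). Fasn, fatty acid synthase, was at 148, 175 and 178 CPM in wild-type mice and 404, 315 and 154 CPM in IL-21isoTg mice. IL-21isoTg replicates 1 and 2 were above all wild-type mice, but replicate 3 was within their range. Acaca, the cytosolic acetyl-CoA carboxylase that makes malonyl-CoA, showed the same order: it was at 62.8, 35.8 and 48.1 CPM in wild-type mice and at 111, 90.2 and 48.0 CPM in IL-21isoTg mice. The log2 fold changes were 0.80 ± 0.32 for Fasn and 0.77 ± 0.33 (SE) for Acaca, and the unadjusted p of each stayed under 0.05 in 10 and 11 of 18 alternative settings. Acacb, the mitochondrial carboxylase that restrains fatty acid oxidation, had a log2 fold change of 0.77 ± 0.43 (SE) with IL-21isoTg replicate 3 highest, at 66.1 CPM beside 35.8 and 16.7 CPM in replicates 1 and 2.

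Among the 7 genes of elongation and desaturation, only Scd1 had an unadjusted p under 0.05, and the median log2 fold change was 0.17. Scd1 (chr19:44394455-44407879, - strand), the desaturase that makes oleate and palmitoleate, was at 153, 119 and 215 CPM in wild-type mice and 766, 646 and 364 CPM in IL-21isoTg mice. All IL-21isoTg mice were above all wild-type mice, with a log2 fold change of 1.87 ± 0.33 (SE) and an adjusted p of 0.411 in edgeR's test. Its neighbouring paralog Scd2 was at 102, 86.5 and 135 CPM in wild-type mice and 74.3, 87.5 and 167 CPM in IL-21isoTg mice, with a log2 fold change of 0.02 ± 0.32 (SE). Elovl5, which elongates polyunsaturated chains, had the next largest log2 fold change, 0.38 ± 0.18 (SE), and Elovl6 and Fads2 had negative ones of -0.22 ± 0.26 and -0.15 ± 0.34 (SE).

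**Figure D2:**
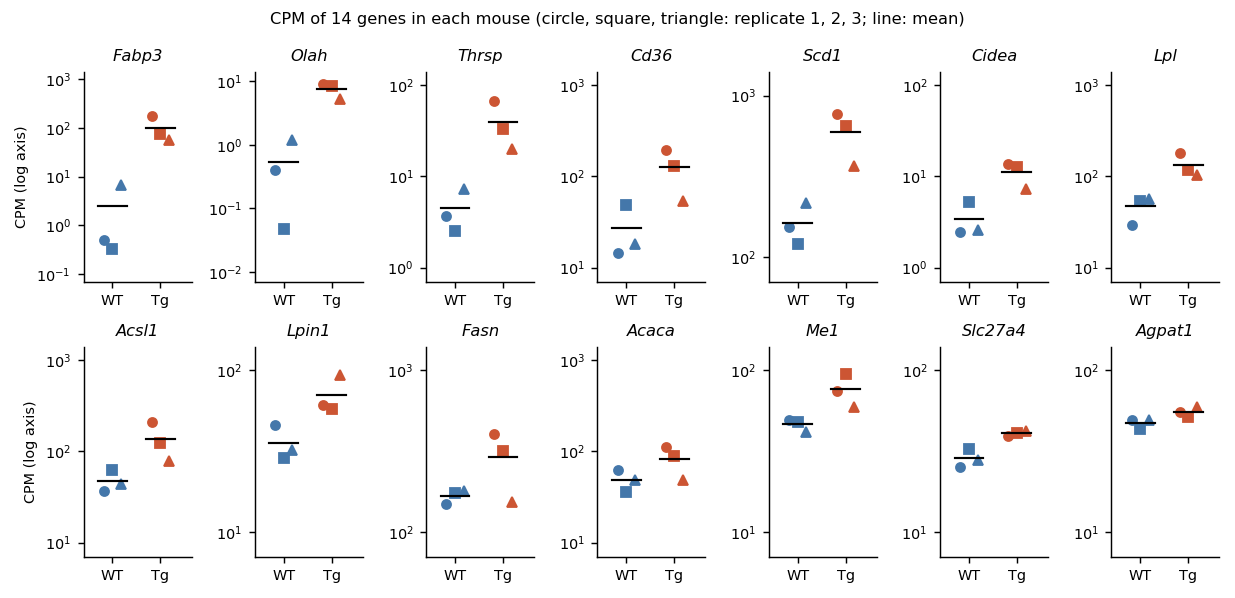
CPM on a log axis in each mouse for the 13 genes with an unadjusted p under 0.05 and for Agpat1, whose genotypes did not overlap; WT, wild-type; Tg, IL-21isoTg. The groups are apart for 12 of the 14 genes, and in Fasn and Acaca the triangle of IL-21isoTg replicate 3 (154 and 48.0 CPM) lies among the wild-type mice.

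Of the 4 genes that supply acetyl-CoA and NADPH, Me1, the cytosolic malic enzyme that makes NADPH, was at 49.6, 48.2 and 41.4 CPM in wild-type mice and 74.9, 94.4 and 59.7 CPM in IL-21isoTg mice. The groups were apart, with a log2 fold change of 0.72 ± 0.20 (SE). Acly, which splits citrate into acetyl-CoA, was at 165, 145 and 149 CPM in wild-type mice and 202, 203 and 152 CPM in IL-21isoTg mice, with a log2 fold change of 0.28 ± 0.17 (SE). The citrate carrier Slc25a1 had a log2 fold change of -0.02 ± 0.16 (SE), and Acss2, which makes acetyl-CoA from acetate, 0.39 ± 0.27 (SE). For Acss2, IL-21isoTg replicate 3 was at 42.5 CPM and the other 5 mice between 20.7 and 24.5 CPM. Acss2 shares 395 bases of exon with Gss, Mid1ip1 543 bases with Gm14493, Srebf1 109 bases with Rai1, Agpat2 64 bases with Egfl7 and Elovl1 53 bases with Cdc20, all on opposite strands, with the limit given for Fabp3. On the same strand, Acsl3 shares 244 bases with Utp14b, and there strand cannot tell the reads apart. Utp14b had 1331 counts over the 6 mice, beside 6835 for Acsl3.

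Acsl1, which couples long-chain fatty acids to coenzyme A, was the gene of the activation step with an unadjusted p under 0.05: it was at 37.2, 62.3 and 44.3 CPM in wild-type mice and 208, 125 and 77.7 CPM in IL-21isoTg mice. The groups did not overlap, and the log2 fold change was 1.51 ± 0.36 (SE). The related synthetases Acsl3 and Acsl4 had log2 fold changes of -0.24 ± 0.17 and 0.17 ± 0.14 (SE), with overlap in both.

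Triglyceride assembly showed the smallest summed difference of the 7 roles. Its 8 genes together were at 339 ± 41.2 CPM in wild-type mice and 374 ± 23.8 CPM in IL-21isoTg mice (SD, n = 3 each), a ratio of 1.10, beside 2.50 for uptake and transport, 1.82 for chain synthesis and 1.77 for elongation and desaturation. The sum for elongation and desaturation rested on Scd1, which held 162 of 591 CPM in wild-type mice and 592 of 1046 CPM in IL-21isoTg mice (means). By the median log2 fold change, elongation and desaturation (0.17) and triglyceride assembly (0.15) were close. Lpin1, a phosphatidate phosphatase, was the gene of triglyceride assembly with an unadjusted p under 0.05: it was at 46.1, 28.5 and 32.3 CPM in wild-type mice and 61.4, 57.5 and 93.7 CPM in IL-21isoTg mice, a log2 fold change of 0.99 ± 0.26 (SE). IL-21isoTg replicate 3 was the highest mouse here. Within each genotype, Lpin1 ran in the order of the salivary gland share of counts. That share was 23.1%, 6.68% and 15.9% in wild-type replicates 1, 2 and 3 and 22.65%, 4.97% and 41.3% in IL-21isoTg replicates 1, 2 and 3. Acss2, Acacb, Agpat1, Fabp5 and Mlxipl ran in this order in IL-21isoTg mice but not in wild-type mice. The part of salivary gland RNA in these levels was not tested. Lpin2, the paralog of Lpin1, was at 65.8, 76.0 and 56.6 CPM in wild-type mice and 44.0, 102 and 63.7 CPM in IL-21isoTg mice. Agpat1, an acyltransferase that makes phosphatidate, was at 49.3, 43.6 and 49.4 CPM in wild-type mice and 54.9, 51.3 and 59.2 CPM in IL-21isoTg mice; these groups did not overlap, but the log2 fold change was 0.22 ± 0.14 (SE), with an adjusted p of 0.820 in edgeR's test, and -0.056 when total counts were used without normalization factors. The lowest log2 fold changes of all 38 genes were those of Dgat2 and Agpat2, at -0.62 ± 0.40 and -0.41 ± 0.38 (SE); Dgat1 and Dgat2 both catalyse the last acylation, and Dgat1 had 0.21 ± 0.18 (SE). Both Dgat2 and Agpat2 varied widely among wild-type mice, from 21.2 to 72.2 CPM and from 14.0 to 46.2 CPM, and without wild-type replicate 1 both were lower at an unadjusted p under 0.05.

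Cidea, a lipid droplet protein that enlarges droplets and takes part in milk fat secretion, was at 2.48, 5.29 and 2.56 CPM in wild-type mice and 13.8, 12.7 and 7.37 CPM in IL-21isoTg mice, a log2 fold change of 1.72 ± 0.39 (SE) without overlap. The transcription factors that act on many of these genes differed less. Srebf1, which encodes SREBP-1, was at 153, 178 and 222 CPM in wild-type mice and 290, 236 and 181 CPM in IL-21isoTg mice, with a log2 fold change of 0.36 ± 0.23 (SE), and Mlxipl, which encodes ChREBP, had 0.04 ± 0.43 (SE).

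Per length of exon, the order of levels in wild-type mice was led by Scd1 at 33.2 ± 9.96, Srebf1 at 32.7 ± 6.18, Fads2 at 31.1 ± 2.85 and Acly at 29.0 ± 2.02 CPM per kb (SD, n = 3), which did not differ from each other beyond their spread, and ended with Mlxipl at 0.745 ± 0.244 and Olah at 0.306 ± 0.324 CPM per kb. In IL-21isoTg mice Fabp3 at 123 ± 75.6 and Scd1 at 121 ± 42.2 CPM per kb were the highest, again within each other's spread, followed by Srebf1 at 41.8 ± 9.65 and Cd36 at 35.4 ± 20.0 CPM per kb. Fabp3 was the gene at rank 31 of the 38 in wild-type mice and at rank 1 in IL-21isoTg mice, Cd36 at ranks 20 and 4, and Thrsp at ranks 35 and 14.

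Ratios of counts between genes of the same family within a mouse do not depend on the scaling of libraries, and 17 such pairs were compared. The genotypes did not overlap in 6 pairs, each with an exact two-sided permutation p of 0.1, the smallest that 3 mice against 3 allow, and an adjusted p of 0.283 over the 17 pairs. Counts of Scd1 were 1.49, 1.38 and 1.60 times those of Scd2 in wild-type mice and 10.3, 7.39 and 2.19 times in IL-21isoTg mice. The ratio was narrow in wild-type mice and spread over IL-21isoTg mice, with replicate 3 nearest to wild-type. For Fabp3 over Fabp5 the ratio was 0.0116, 0.0291 and 0.588 in wild-type mice and 12.5, 5.84 and 1.72 in IL-21isoTg mice, below 1 in every wild-type mouse and above 1 in every IL-21isoTg mouse, by counts not corrected for length. The ratio of Acsl1 to Acsl3 was 0.574, 1.13 and 0.853 in wild-type mice and 4.49, 2.18 and 1.85 in IL-21isoTg mice. The other pairs without overlap were Acsl1 with Acsl4, Acsl3 with Acsl4, and Fads1 with Fads2, the last with the small difference in log2 ratio of 0.38. The 11 remaining pairs, among them Acaca with Acacb and all pairs of Agpat, Elovl and Slc27a genes, overlapped.

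**Figure D3:**
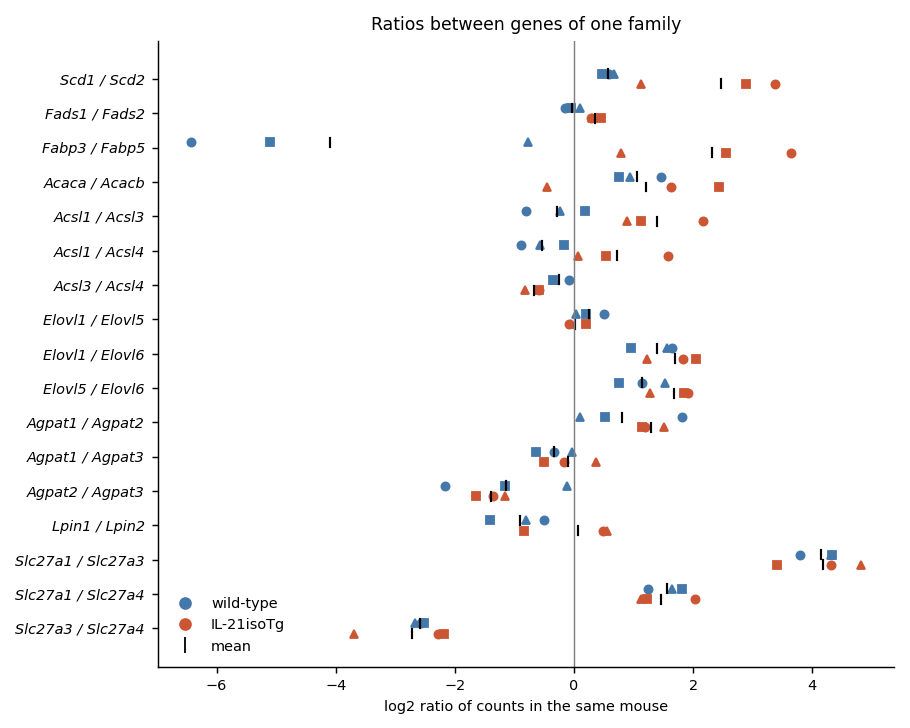
The log2 ratio of the counts of the first gene over the second in each mouse, for 17 pairs of genes of one family; black ticks mark the mean of 3 mice and the symbols mark replicates 1, 2 and 3 (circle, square, triangle). The pair Fabp3 and Fabp5 moves furthest, from a mean of -4.10 in wild-type mice to 2.32 in IL-21isoTg mice, and 6 pairs are apart.

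The order of the mice was shared by many of the genes. Among the 13 genes with an unadjusted p under 0.05, IL-21isoTg replicate 1 was the highest IL-21isoTg mouse for 10 and replicate 3 the lowest for 11. Summed over all 38 genes, levels were 1885, 2090 and 2124 CPM in wild-type mice and 3987, 3386 and 2489 CPM in IL-21isoTg mice. Milk protein genes ran in the same order in IL-21isoTg mice, at 538, 523 and 1733 CPM in wild-type mice and 20366, 15762 and 8818 CPM in IL-21isoTg mice, and all 8 of them were higher at an unadjusted p under 0.05. Wild-type replicate 3, the wild-type mouse with most milk protein counts, was the highest wild-type mouse for 6 of the 13 genes (Fabp3, Olah, Thrsp, Scd1, Lpl and Fasn). Replicate 2 was the highest for Cd36, Slc27a4, Acsl1 and Cidea, and replicate 1 for Me1, Acaca and Lpin1. The shares of all genes with these orders of mice were not counted.

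Markers of other cell types also differed between the mice. The 12 adipocyte markers summed to 72.2, 124 and 81.4 CPM in wild-type mice and 417, 177 and 98.6 CPM in IL-21isoTg mice. Of these markers 6 were tested, and 3 (Cidec, Cfd and Lipe) had an unadjusted p under 0.05, all higher. Adiponectin (Adipoq), which defines adipocytes, was at 0, 0.240 and 0.270 CPM in wild-type mice and 8.61, 0.893 and 0.0933 CPM in IL-21isoTg mice, and Cfd (adipsin) at 0.0451, 0.192 and 3.24 CPM and 132, 11.1 and 1.96 CPM. In IL-21isoTg replicate 3, which had the smallest effective library, Retn, Pck1, Adrb3, Ucp1 and Cidec were at 0. These genes were low in wild-type mice too, at no more than 17 counts. In that IL-21isoTg mouse, 10 of the 12 markers were at or below the highest wild-type mouse. The 8 endothelial markers summed to 107, 232 and 92.4 CPM in wild-type mice and 335, 284 and 142 CPM in IL-21isoTg mice. Of these, 3 were higher at an unadjusted p under 0.05: Cdh5, Cldn5 and Pecam1, which encodes CD31. The log2 fold change of Pecam1 was 1.11 ± 0.40 (SE), with overlap between the genotypes. For 7 of 8, IL-21isoTg replicate 3 was at or below the highest wild-type mouse. The share of all genes for which this holds was not counted, so neither this count nor that of adipocyte markers can be set against it. Fibroblast markers, at 1985, 3580 and 3226 CPM in wild-type mice and 5131, 4463 and 4469 CPM in IL-21isoTg mice, did not overlap in sum. Of the 8 genes, 4 were apart, Lum and the collagen genes Col1a1, Col1a2 and Col3a1, and these 3 collagen genes were higher at an unadjusted p under 0.05. The sum was apart through the collagen genes. Pdgfra, which encodes CD140a, Dpt and Pi16 overlapped, as did Dcn, which had a negative log2 fold change of -0.27 ± 0.28 (SE) and means of 738 CPM in wild-type and 612 CPM in IL-21isoTg mice. Without IL-21isoTg replicate 1, the mouse with most adipocyte and endothelial marker counts, 11 of the 38 genes were higher at an unadjusted p under 0.05 (1.88% of all genes), with log2 fold changes of 4.72 ± 1.11 (SE) for Fabp3 and 1.76 ± 0.58 (SE) for Cd36. The part of these cell types in the differences of the 38 genes was not tested.

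**Figure D4:**
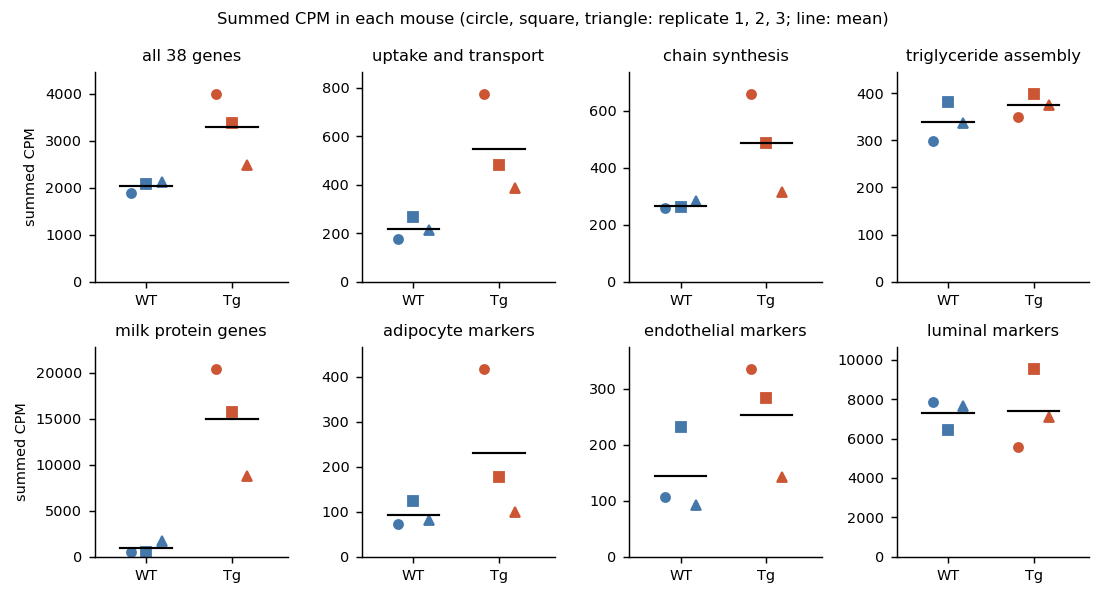
Summed CPM in each mouse for all 38 genes, 3 of the roles and 4 marker lists; WT, wild-type; Tg, IL-21isoTg. The 38 genes, uptake and transport, chain synthesis and milk protein genes are apart between the genotypes, while adipocyte, endothelial and luminal markers overlap; fibroblast markers, not plotted, are also apart, and IL-21isoTg replicate 1 is highest for adipocyte markers, at 417 CPM.

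Other genes of lipid metabolism, in 6 related lists of 75 genes, were counted in the same way. Of the 65 that were tested, 12 were higher and 1 was lower at an unadjusted p under 0.05 (18.5% and 1.54%), with a median log2 fold change of 0.14. Milk lipid droplet secretion held 5 of the 12. Xdh, which anchors the milk fat globule coat, was at 49.7, 95.7 and 129 CPM in wild-type mice and 394, 316 and 301 CPM in IL-21isoTg mice, a log2 fold change of 1.88 ± 0.33 (SE). Its partner Btn1a1 was at 13.4, 142 and 103 CPM and 382, 538 and 142 CPM, so IL-21isoTg replicate 3 was level with wild-type replicate 2. The droplet coat protein Plin2 and the transporter Abcg2 had log2 fold changes of 1.28 ± 0.37 and 1.37 ± 0.30 (SE), and Cidec, also an adipocyte marker, 4.18 ± 1.64 (SE) with 0 counts in IL-21isoTg replicate 3. The rest were Gpat4, Gpd1 and Gk, which supply and acylate glycerol phosphate (log2 fold changes of 0.47 ± 0.14, 0.65 ± 0.15 and 0.39 ± 0.17), Scd3 (1.54 ± 0.56), and Me3, Mpc2 and Mlycd (1.13 ± 0.36, 0.39 ± 0.16 and 0.67 ± 0.26). The gene that was lower was Me2, a mitochondrial malic enzyme, with -1.01 ± 0.38 (SE). Among 14 other regulators of lipid synthesis, 0 had an unadjusted p under 0.05, and none of the 65 genes tested passed an adjusted p of 0.05 in edgeR's test.

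The upstream sequences of the genes were searched for 4 short motifs, to show what the genes that moved together hold in front of their start sites. RefSeq promoters (GRCm38.p6) were matched for 30 of the 38 genes, and the 250 bases before each start were searched on both strands; the fourth motif was added after the sequences were seen. The STAT motif TTCNNNGAA was in 1 of the 30 genes (3.33%), Agpat1, against 8.13% of 27025 genes with a promoter. The sterol regulatory element TCACNCCAC was in 2 of the 30 (6.67%), against 1.22%, the E-box CACGTG in 5 of the 30 (16.7%), against 6.86%, and the CCAAT box in 18 of the 30 (60%), against 37.5%. Of the 10 matched genes with an unadjusted p under 0.05, 0 held the STAT motif or the E-box, 1 held the sterol regulatory element and 5 held a CCAAT box. The 120 bases before the start are shown for Fasn and for the second start of Acsl1, the genes among these 10 that had a match within this stretch and no annotated exon in the 250 bases. Capitals mark matches: CCAAT or its reverse complement in both (in Fasn 2 matches overlap), and the sterol regulatory element, read on the opposite strand, as the first run of capitals in Acsl1.
Fasn, chr11:120824548-120824667, - strand: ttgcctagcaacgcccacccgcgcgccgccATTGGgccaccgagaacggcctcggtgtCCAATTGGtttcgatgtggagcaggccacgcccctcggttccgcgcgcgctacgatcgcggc
Acsl1, chr8:46490846-46490965, + strand: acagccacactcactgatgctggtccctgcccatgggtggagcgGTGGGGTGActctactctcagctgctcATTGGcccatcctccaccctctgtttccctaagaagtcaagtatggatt

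The matches lie at -90, -62 and -59 in Fasn and at -76 (sterol regulatory element) and -49 (CCAAT box) in Acsl1, counted backwards from -1, the base before the start. Fasn and Acsl1 are the genes with log2 fold changes of 0.80 and 1.51 above, while Thrsp, with 3.16, held 2 CCAAT boxes, and Fabp3, with 5.34, and Olah, with 3.80, held none of the 4 motifs in this window. The RefSeq starts used were not always the start of the annotated gene. Among the 10 matched genes with an unadjusted p under 0.05, the windows of Olah (chr2:3366570-3366819), Acaca (chr11:84195188-84195437) and Cd36 (chr5:17835897-17836146) lie inside the gene. Those of Fabp3 (chr4:130308488-130308737), Thrsp (chr7:97417551-97417800) and the first start of Me1 (chr9:86695915-86696164) run past the gene start, and the second start of Me1 lies inside the gene. For these genes the sequence before the annotated gene start was thus not, or only partly, searched. The 2 CCAAT boxes of Thrsp lie within the annotated gene. The stretch shown for Acsl1 also lies inside its gene, which starts at chr8:46471037. A match describes these letters only; binding was not measured.

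Under 18 alternative settings, the 13 genes kept a positive log2 fold change wherever they were tested, and 9 of them (Fabp3, Olah, Thrsp, Cd36, Scd1, Cidea, Lpl, Acsl1 and Lpin1) had an unadjusted p under 0.05 in each. The setting that removed the salivary gland genes left the counts of the 13 genes themselves unchanged. Leaving out each mouse in turn gave 11 to 17 of the 38 genes higher at this threshold, and the other settings 9 to 14, beside 0.635% to 5.12% of all genes over all settings.

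**Figure D5:**
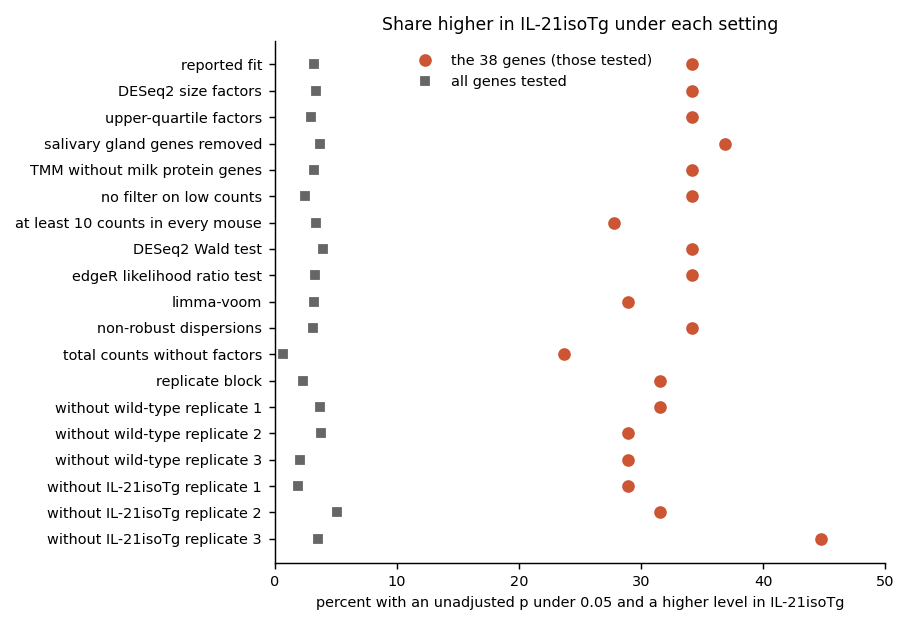
Percent of the 38 genes (circles) and of all genes tested (squares) that were higher in IL-21isoTg mice at an unadjusted p under 0.05, for the reported fit and 18 alternative settings. The circles lie between 23.7% and 44.7%, and the squares between 0.635% and 5.12%.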

How the data were processed

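Poly(A)-selected RNA of MECs was sequenced from 6 mice, 3 of each genotype, as paired reads by a directional protocol. The deposited values are counts of reads per gene, which the authors left without normalization. The submitters' processing notes name FastQC 0.11.7, Trimmomatic 0.38, HISAT2 2.1.0, SAMtools 1.9, featureCounts 1.6.3, DESeq2 1.24.0 and the build mm10; the annotation and the strand setting of counting are not given in the sources used here. Size-factor-normalized values and the authors' own comparison (fold changes and p-values) were not used, apart from gene positions (start and end), which the authors deposited with it and which equal GENCODE M21 (GRCm38) for 37 of the 38 genes.

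Genes were filtered with filterByExpr (minimum count 10, minimum total 15), scaled by TMM and compared with edgeR 4.0.16's quasi-likelihood test (robust dispersions, genotype as the only term, R 4.3.3), with Benjamini-Hochberg adjustment over 17165 genes. SEs are the absolute log2 fold change over the square root of F. CPM are mean ± SD over mice; nothing states that mice were handled separately beyond 1 library each, so p-values measure the spread between these libraries. Floors cover counting error only. Alternatives were other scalings, filters, tools (DESeq2 1.42.0, limma 3.58.1), the replicate number as a block, and each mouse left out; total counts without factors were added after the data were seen. The code was tested on simulated counts. Figures used Python 3.11.15 and matplotlib 3.10.9.

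The 38 genes, the related and marker lists and the tests were chosen with earlier results of these data known. Genes given by mouse are those with an unadjusted p under 0.05 or genotypes that do not overlap, and the gene of highest mean CPM in each role; related genes are named at an unadjusted p under 0.05, and other values are given where they pair with a named gene.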

Additional observations from a re-analysis of the deposited data

How the results depend on the processing

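Of all 17165 genes, 0 were called by edgeR's quasi-likelihood test at an adjusted p under 0.05, with 548 higher and 451 lower at an unadjusted p under 0.05. Genes called higher numbered 14 with no filter on low counts, 72 with DESeq2, 52 with edgeR's likelihood ratio test and 3 with total counts without factors (added after the data were seen), and 0 to 6 when each mouse was left out, 6 of them without wild-type replicate 3. Genes called lower numbered 9 with DESeq2 and 13 with the likelihood ratio test. Of the 38 genes, 8 were called higher by DESeq2 and 8 by the likelihood ratio test, and 0 to 1 when each mouse was left out, the 1 being Fabp3 without wild-type replicate 3. The cause of these differences between tests was not tested. The log2 fold change of Agpat1 reversed to -0.056 with total counts without factors, which shifts all genes down by construction. The median over the 38 genes was 0.06 in that setting and 0.24 to 0.39 under the others. Replicate numbers pair the mice only by label: same-numbered mice had correlations of deviations of -0.263, 0.0956 and -0.0556, so the replicate block was kept as an alternative, which called 0 genes and left 12 of the 38 higher at an unadjusted p under 0.05, with a median of 0.33. With 3 mice a genotype, groups were too small to look for outlying mice by a test of gaps, and low counts limit Olah and Fabp3 in wild-type mice, which a minimum of 10 counts in every mouse removes.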
